A study of Mus musculus with 2 samples.

Results

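Genes of the TGF-beta pathway were followed in tumor-associated neutrophils (TANs) and in the cells sorted with them. They were Tgfb1, Tgfbr1, Tgfbr2, Smad2, Smad3, Smad4, Smad7, Ski, Skil and Tgif1, chosen by symbol, 10 of the 31053 genes in the deposited count matrix, and all 10 were found. The cells came from subcutaneous tumors of Lewis lung carcinoma (LLC), a mouse lung cancer line, grown in mice of both sexes on the C57BL/6 J background, aged 8 to 12 weeks. One group of hosts was wild type (Smad3-WT) and the other Smad3-/- (Smad3-KO), while the injected LLC cells carried wild-type Smad3 in both. Cells with CD11b and Ly6G on their surface were sorted from 8 pooled tumors per genotype and made into 1 single-cell RNA library each. With 1 library per genotype, the genotype cannot be told apart from the pool, the sort or the library, no test between genotypes was possible, and all intervals below are 95% intervals for counting error only.

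TGF-beta is a secreted cytokine that limits inflammation and, in tumors, is known to steer myeloid cells. It binds the type II receptor, which activates the type I receptor. That kinase phosphorylates the Smad2 and Smad3 proteins, which enter the nucleus with Smad4 and change transcription. Smad7 blocks the receptors in a feedback loop, and Ski, Skil and Tgif1 hold Smad target genes silent as corepressors.

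The sequence altered in the Smad3-KO hosts is shown because it decides what a Smad3 count can mean. In the Smad3-KO allele, exon 8 of Smad3 was deleted and exon 7 disrupted. In the GENCODE transcript Smad3-201 (GRCm38), exon 8 of 9 lies on the minus strand at chr9:63652481-63652625, is wholly coding and spans 145 bases. It begins after 26.1% of the 5090 bases of the mRNA. The libraries were made with a kit that reads the 5′ end of transcripts, so a Smad3 count could come from an RNA without exon 8 and did not check the genotype.
Smad3 exon 8: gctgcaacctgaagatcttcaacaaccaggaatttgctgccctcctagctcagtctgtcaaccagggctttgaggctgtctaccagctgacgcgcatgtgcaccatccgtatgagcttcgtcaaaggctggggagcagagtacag

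The regions just upstream of Smad3, Tgfb1 and Tgif1, which passed 2-fold between the libraries in neutrophil-like cells, are shown next, 250 bases each from RefSeq (GRCm38.p6). Motifs were searched on both strands, namely the Smad box CAGAC, the palindromic Smad element GTCTAGAC and the AP-1 element TGACTCA, and no motif contains another. Over 32851 upstream regions, each the 250 bases before a start, 42.2% held the Smad box, 0.167% the palindrome and 4.46% the AP-1 element. The upstream region of Smad3 (chr9:63757995-63758244, minus strand) held none of the motifs, nor did that of Tgfb1 (chr7:25686752-25687001, plus strand). The region shown for Tgif1 (chr17:70853533-70853782, minus strand) is before 1 of its several starts and held 1 Smad box, in capitals, at base -201. Upstream sequences were matched for 6 of the 10 genes, and Skil was not among them.
Smad3 upstream: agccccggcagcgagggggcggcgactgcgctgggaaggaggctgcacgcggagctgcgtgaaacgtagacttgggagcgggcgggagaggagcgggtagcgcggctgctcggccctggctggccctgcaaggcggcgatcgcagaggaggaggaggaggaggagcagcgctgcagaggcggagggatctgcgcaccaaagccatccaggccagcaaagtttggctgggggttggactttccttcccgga
Tgfb1 upstream: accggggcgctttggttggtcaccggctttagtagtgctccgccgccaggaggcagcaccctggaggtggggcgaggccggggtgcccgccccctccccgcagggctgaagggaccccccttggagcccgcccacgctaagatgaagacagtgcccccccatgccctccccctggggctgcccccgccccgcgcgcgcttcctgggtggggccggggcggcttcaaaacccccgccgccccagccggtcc
Tgif1 upstream: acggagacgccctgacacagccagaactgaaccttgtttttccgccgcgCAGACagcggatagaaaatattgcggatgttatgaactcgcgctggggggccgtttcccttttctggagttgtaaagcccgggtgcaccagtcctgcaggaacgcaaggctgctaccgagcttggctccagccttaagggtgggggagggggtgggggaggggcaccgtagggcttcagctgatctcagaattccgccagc

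The deposited matrix counted unique molecular identifiers (UMIs), each standing for 1 captured RNA molecule. The Smad3-WT library held 4116 barcodes and 23951400 UMIs, and the Smad3-KO library 2514 barcodes and 4214290 UMIs. After filters, 3520 and 2433 cells were kept, with medians of 1318.5 and 1199 UMIs. An upper limit on UMIs removed 382 Smad3-WT and 0 Smad3-KO barcodes. The libraries shared 73 barcode sequences, of which 24 Smad3-WT and 46 Smad3-KO cells were kept. Cell classes were rebuilt from clusters and marker genes, since the authors' assignment of cells was not used here, and differences from the study may come from that. Neutrophil-like cells numbered 1799 (51.1%) in Smad3-WT and 1000 (41.1%) in Smad3-KO, with median depths of 741 and 991.5 UMIs, and 12 of 12 neutrophil markers were detected in each. The sort label therefore did not describe all cells: 859 and 50 were macrophage or monocyte-like, 48 and 410 T or NK-like, 3 and 495 B-like, and 345 and 27 LLC carcinoma-like. Levels are given as CPM, the counts of a gene per 1000000 UMIs of the group, and a gene was counted as higher or lower when its ratio passed 2-fold with at least 20 UMIs over both libraries.

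Among neutrophil-like cells, Smad3 and the corepressors Tgif1 and Skil were higher in the Smad3-KO library, and the ligand Tgfb1 was lower. All 10 genes had at least 20 UMIs, and 3 were at least 2-fold higher and 1 at least 2-fold lower. Over the 5896 genes that met the same minimum, 7.16% were higher and 25.9% lower. The median Smad3-KO to Smad3-WT ratio was 1.14 over the 10 genes and 0.727 over all genes, a shift of -0.46 on the log2 scale. When ratios were taken relative to that median, Smad3, Tgif1 and Skil stayed past 2-fold at 15.6, 4.28 and 2.75, and Tgfb1 at 0.516 did not. With that scaling the split over all genes was 14.1% higher and 12.8% lower.

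The cells compared were not alike in kind. Of the Smad3-WT neutrophil-like cells, 51.8% lay in cluster 1 (led by Retnlg, G0s2, Mmp9 and Cxcr2), 28.9% in cluster 4 (Gm5483, Lcn2 and Ccl3) and 18.2% in cluster 9 (Ifit3b, Ifit1 and Rsad2). Of the Smad3-KO cells, 84.5% lay in cluster 2 (Il1a, Ccl3 and Ccrl2) and 13.8% in cluster 1. Cluster 2 held 845 Smad3-KO and 21 Smad3-WT cells, so it may be that library and not a cell type. Markers of other cell types also moved with the library in the neutrophil-like cells. Macrophage markers summed to 539 CPM in Smad3-WT and 320 CPM in Smad3-KO (15 of 15 detected in each), T or NK markers to 23.3 and 142 CPM (8 and 10 of 13, with Ncr1, Gzma and Prf1 at 0 in both), and B markers to 69.9 and 74.0 CPM (2 and 8 of 8). The haemoglobin genes of the erythroid marker list summed to 175 and 1388 CPM, and LLC markers to 39.2 and 1.78 CPM (7 and 1 of 7). The median mitochondrial share was 0.352% and 0.198%. The part of these differences in the results was not tested.

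Tgfb1 encodes the ligand. The gene lies at chr7:25687002-25705077 on the plus strand (GENCODE, GRCm38). Its level was 249 CPM from 407 UMIs (interval 226 to 275) in Smad3-WT neutrophil-like cells, against 93.6 CPM from 105 UMIs (76.6 to 113) in the Smad3-KO ones. The ratio was 0.375 (0.300 to 0.466), and the intervals of the levels did not overlap. Cells with a Tgfb1 UMI made up 18.1% of the Smad3-WT class and 9.40% of the Smad3-KO class. When every cell was thinned to 500 UMIs, so that depth was equal, the shares were 11.2% and 4.40%, in the same order. The thinned Smad3-KO B-like share was 16.2%, above both.

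In CPM, neither receptor differed beyond counting error. Tgfbr1 lies at chr4:47353222-47414931 (plus strand) and Tgfbr2 at chr9:116084293-116175360 (minus strand). Tgfbr1, the type I receptor kinase, was at 32.5 CPM (53 UMIs) in Smad3-WT and 41.9 CPM (47 UMIs) in Smad3-KO, a ratio of 1.29 (0.852 to 1.95). Tgfbr2, the type II receptor that binds ligand, was at 29.4 CPM in each, from 48 and 33 UMIs, with a ratio of 1.0 (0.622 to 1.59). A difference of either receptor in CPM was not detectable at this depth. Relative to the median of all genes the ratios were 1.77 for Tgfbr1 and 1.375 for Tgfbr2, so the reading depends on the scaling.

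Of the signal transducers, Smad3 stood apart from Smad2 and Smad4. Smad3 (chr9:63646767-63757994, minus strand) was at 16.5 CPM from 27 UMIs (10.9 to 24.1) in the Smad3-WT neutrophil-like cells. In the Smad3-KO ones it was at 187 CPM from 210 UMIs (163 to 214), a ratio of 11.3 (7.56 to 17.6). It was found in 26 Smad3-WT cells, 1.45% (0.946 to 2.11), and in 177 Smad3-KO cells, 17.7% (15.4 to 20.2), with at most 4 UMIs in 1 cell. At 500 UMIs per cell the shares were 0.834% and 8.10%. In Smad3-KO B-like cells, with a median of 1202 UMIs, the unthinned share was 2.22% and the thinned one 0.808%. The thinned Smad3-KO neutrophil-like share lay above that, and the Smad3-WT one, from another library, near it. Thinned Smad3-WT shares were 0.233% in macrophage or monocyte-like and 1.74% in LLC carcinoma-like cells. An unnamed cluster, number 6, described below, had 0.510%. Each of these intervals overlapped the Smad3-WT neutrophil-like one, 0.467 to 1.37. How much of the low Smad3-WT level, on which the ratio rests, was free RNA was not tested. Smad2, the partner substrate of the type I receptor, was at 22.1 CPM (36 UMIs) and 12.5 CPM (14 UMIs), with a ratio of 0.566 (0.282 to 1.07). Smad4, the shared partner that enters the nucleus with both, was at 34.3 CPM (56 UMIs) and 49.0 CPM (55 UMIs), with a ratio of 1.43 (0.967 to 2.11). The intervals of Smad2 and Smad4 included 1. Relative to the median of all genes their ratios were 0.778 and 1.96, so for these genes too the reading depends on the scaling. Of these Smads, only the mutated gene itself had a count past 2-fold higher in the Smad3-KO library.

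The inhibitors divided. Ski lies at chr4:155154075-155222592 (minus strand), Skil at chr3:31095058-31122577 (plus strand) and Tgif1 at chr17:70844205-70853546 (minus strand). Smad7, the inhibitory Smad, was at 27.6 CPM (45 UMIs) and 22.3 CPM (25 UMIs), a ratio of 0.808 (0.475 to 1.35) with an interval including 1, or 1.11 relative to the median of all genes. Ski was at 61.9 CPM (101 UMIs) and 31.2 CPM (35 UMIs), a ratio of 0.504 (0.333 to 0.747) just inside 2-fold. Relative to that median the Ski ratio was 0.693. Skil, the close relative of Ski, went the other way. Its level was 84.6 CPM from 138 UMIs (71.1 to 99.9) and, in Smad3-KO, 169 CPM from 190 UMIs (146 to 195), a ratio of 2.0 (1.60 to 2.51) just past 2-fold. Tgif1, a homeodomain corepressor of Smad2 and Smad3, was at 238 CPM from 389 UMIs (215 to 263) and at 742 CPM from 832 UMIs (692 to 794), a ratio of 3.11 (2.75 to 3.52). The share of cells with a Tgif1 UMI was 17.0% and 46.0%, and 10.6% and 27.6% after thinning. Skil was found in 7.06% and 16.1%, and in 3.84% and 8.30% after thinning. In thinned Smad3-KO B-like cells the shares were 3.23% for Tgif1 and 3.03% for Skil.

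**Figure D1:**
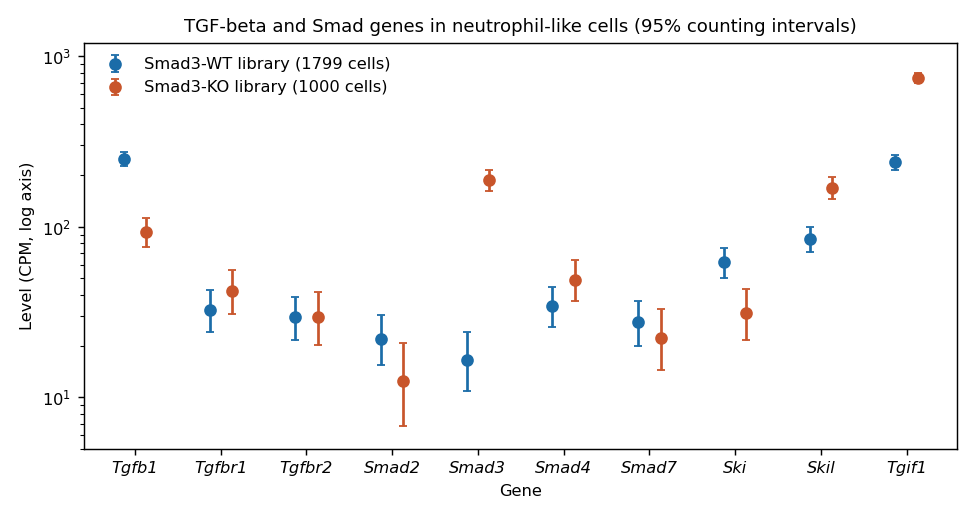
Level of each of the 10 genes in neutrophil-like cells, in CPM, for the Smad3-WT and the Smad3-KO library, with 95% counting intervals. Smad3 rises from 16.5 to 187 CPM and Tgif1 from 238 to 742 CPM, while Tgfb1 goes from 249 to 93.6 CPM.

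Within the Smad3-KO neutrophil-like class, Smad3, Tgif1 and Skil were compared between cells with and without a UMI of each other. Tgif1 was at 935 CPM in the 177 cells with a Smad3 UMI and 688 CPM in the 823 cells without, a ratio of 1.36 (1.16 to 1.59), and 104 cells held both. Split the other way, Smad3 in cells with and without Tgif1 gave a ratio of 1.20 (0.902 to 1.59), which included 1, so these sparse counts are given as a description. Cells with Smad3 were deeper, with a median of 1163 against 965 UMIs. Skil was at 218 CPM in cells with Tgif1 and 114 CPM in the rest, a ratio of 1.90 (1.39 to 2.63). Between Smad3 and Skil the ratio was 1.25 (0.885 to 1.74), an interval that included 1. In Smad3-WT cells the intervals of all pairs tried included 1. Of the 460 Smad3-KO cells with Tgif1, 450 lay in cluster 2, and the part of the clusters in these ratios was not tested.

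Most UMIs of Smad3, Tgif1 and Skil in the Smad3-KO neutrophil-like cells sat in cluster 2, as did most of the cells. That cluster held 201 of the 210 Smad3 UMIs, 820 of the 832 Tgif1 UMIs and 185 of the 190 Skil UMIs of the Smad3-KO neutrophil-like cells. It also held 84.5% of these cells, 1006558 of their 1121614 UMIs over all genes and 87.6% of their Tgfb1 UMIs. Smad3 was at 200 CPM there, against 14.9, 14.01 and 20.3 CPM in Smad3-WT clusters 1, 4 and 9. Tgif1 was at 815 CPM, against 132, 390 and 260 CPM in the same Smad3-WT clusters, and Skil at 184 CPM, against 90.5, 67.7 and 94.9 CPM. Set against Smad3-WT cluster 4, which Ccl3 also led, the ratios were 14.3 for Smad3 (6.44 to 39.3), 2.09 for Tgif1 (1.77 to 2.48), 2.71 for Skil (1.83 to 4.17) and 0.290 for Tgfb1 (0.220 to 0.381). The 21 Smad3-WT cells of cluster 2 held 9 Tgif1 UMIs, at 450 CPM (206 to 855), with 1 Smad3 and 0 Skil UMIs. The intervals for Smad3 and Skil were 1.27 to 279 CPM and 0 to 185 CPM. All of these intervals included the Smad3-KO cluster 2 levels.

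Cluster 1, which both libraries shared (931 and 138 cells), differed from the whole class. There Smad3 was at 14.9 CPM (11 UMIs) against 49.3 CPM (5 UMIs), a ratio of 3.32 (0.903 to 10.4). Smad7 was at 16.2 CPM (12 UMIs) against 59.1 CPM (6 UMIs), a ratio of 3.65 (1.12 to 10.5). Both genes had fewer than the 20 UMIs needed for a call. Tgif1 was at 132 CPM (98 UMIs) and 59.1 CPM (6 UMIs), a ratio of 0.447 (0.160 to 1.01). Skil was at 90.5 CPM (67 UMIs) and 49.3 CPM (5 UMIs), a ratio of 0.545 (0.171 to 1.34). Thus Tgif1 and Skil, which were higher over the whole class, were not higher within cluster 1. Tgfb1 was lower there as well, at 226 and 108 CPM, a ratio of 0.481 (0.235 to 0.882). Within the Smad3-KO library, cluster 2 exceeded cluster 1 by 13.8-fold for Tgif1 (6.30 to 37.7), 4.05-fold for Smad3 (1.71 to 12.6) and 3.73-fold for Skil (1.57 to 11.6). The cluster 1 side of these ratios rests on 6, 5 and 5 UMIs. Within Smad3-WT, cluster 4 exceeded cluster 1 by 2.95-fold for Tgif1 (2.28 to 3.82).

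**Figure D2:**
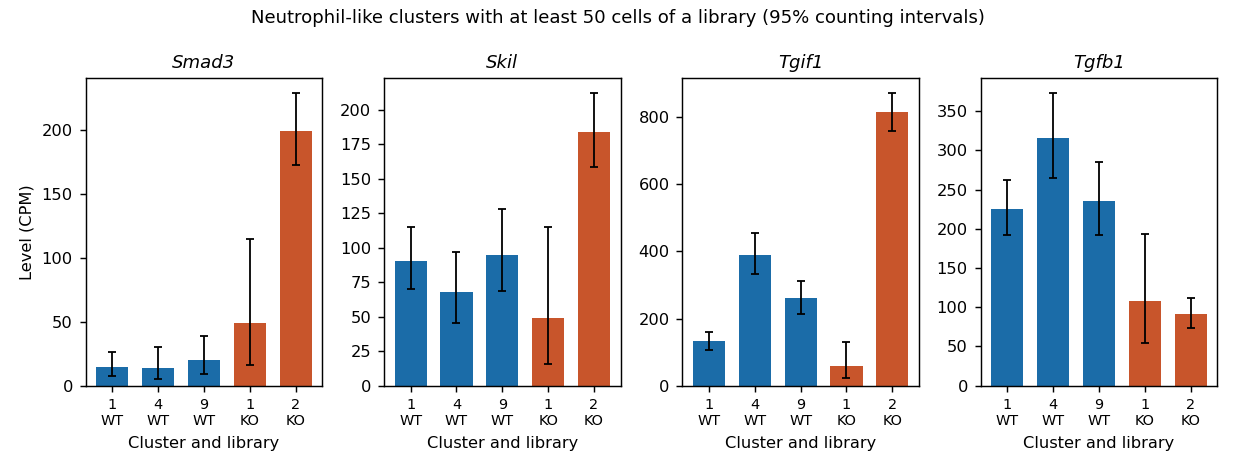
Levels of Smad3, Skil, Tgif1 and Tgfb1, in CPM with 95% counting intervals, in the neutrophil-like clusters with at least 50 cells of a library. Smad3-KO cluster 2 is highest for Smad3 at 200 CPM, Tgif1 at 815 CPM and Skil at 184 CPM, and Smad3-WT cluster 4 for Tgfb1 at 315 CPM.

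Macrophage or monocyte-like cells gave a comparison of 859 Smad3-WT with only 50 Smad3-KO cells, whose 105326 UMIs put the floor of 3 UMIs at 28.5 CPM. All 10 genes passed the minimum of counts, and 4 were at least 2-fold higher and 0 lower, beside 14.7% higher and 21.6% lower of 8944 genes. Of the 1935 lower genes, 1207 were at 0 UMIs in the Smad3-KO cells, and the 728 with a UMI made up 8.14%. Tgfbr2 was at 42.4 CPM (155 UMIs) and 114 CPM (12 UMIs), a ratio of 2.69 (1.36 to 4.83). Smad7 was at 10.9 CPM (40 UMIs) and 57.0 CPM (6 UMIs), a ratio of 5.21 (1.80 to 12.4). These are the receptor and the feedback inhibitor, and their Smad3-KO values rest on few molecules. Skil was at 29.3 CPM (107 UMIs) and 76.0 CPM (8 UMIs), a ratio of 2.60 (1.09 to 5.30). For Smad3, 52 and 4 UMIs gave 14.2 and 38.0 CPM and a ratio of 2.67 (0.701 to 7.26), which included 1. Tgfb1 was at 326 and 266 CPM, a ratio of 0.815 (0.539 to 1.18), so the lower Tgfb1 of the neutrophil-like cells was not detectable here at this depth. The others lay within 2-fold, with ratios of 1.60 for Tgfbr1, 1.26 for Smad2, 1.78 for Smad4, 0.613 for Ski and 1.48 for Tgif1. An unnamed cluster, number 6 (392 and 98 cells), held 9 macrophage or monocyte markers but was led by H2-Eb1, H2-Ab1 and Mgl2. With it included, a choice made after seeing the data, only Smad7 passed 2-fold, at 3.25, and the ratios were 1.501 for Tgfbr2, 1.16 for Skil and 1.57 for Smad3.

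Over all cells of each library, whose make-up differed, 6 of the 10 genes were at least 2-fold higher in Smad3-KO and 0 lower, beside 16.3% higher and 15.4% lower of 12612 genes. Smad3 went from 14.6 CPM (178 UMIs) to 77.4 CPM (321 UMIs), a ratio of 5.30 (4.40 to 6.40). The ratio was 3.51 for Tgfbr2, 3.16 for Tgif1, 2.90 for Skil, 2.30 for Tgfbr1 and 2.22 for Smad7. Smad4, Smad2, Ski and Tgfb1 lay within 2-fold at 1.72, 0.931, 0.910 and 0.722. Neutrophil-like cells held 15.2% of all Smad3 UMIs in the first library and 65.4% in the second. Their share of Tgif1 UMIs was 36.4% and 72.3%, and that of Tgfb1 15.02% and 15.8%. Over all genes, neutrophil-like cells held 1631476 of 12176201 UMIs in the first library and 1121614 of 4146792 in the second. Without cluster 2 the ratio over all cells was 2.62 for Smad3 and 1.21 for Tgif1.

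**Figure D3:**
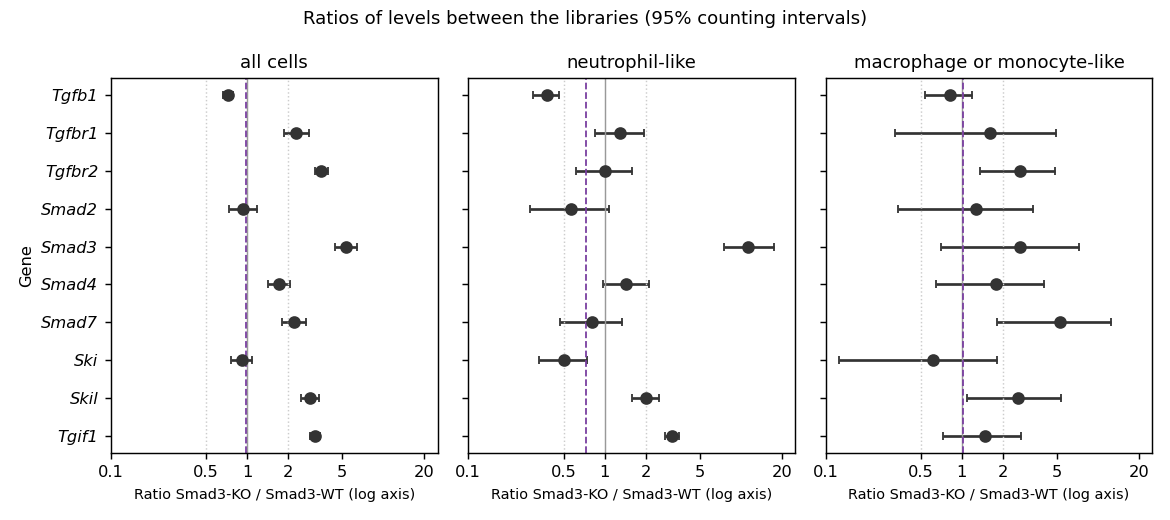
Ratio of Smad3-KO to Smad3-WT for the 10 genes, on a log axis, with 95% counting intervals, for the cell groups compared. Dotted lines mark 0.5 and 2 and the dashed purple line the median ratio of all genes, 0.727 in neutrophil-like cells, where Smad3 at 11.3 lies furthest from it.

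In CPM, the genes had different homes across the cell types. Among groups with at least 10 UMIs, Smad3, Skil and Tgif1 had their highest level in Smad3-KO neutrophil-like cells. With median-of-ratios scaling Tgfb1, Tgfbr1, Smad2 and Smad4 were highest in neutrophil-like cells too, 7 members against 3, so the homes depend on the scaling. In CPM the ligand Tgfb1 was highest in the macrophage or monocyte-like class of Smad3-WT, at 326 CPM (308 to 345), without standing apart. Intervals overlapped it for Smad3-WT unnamed cluster 6, at 303 CPM (281 to 327), and Smad3-KO B-like cells, at 282 CPM (247 to 321). Under some other settings the highest Tgfb1 group was an unnamed cluster, Smad3-KO B-like cells or Smad3-WT neutrophil-like cells. Tgfbr2 was highest in fibroblast-like cells, at 625 CPM (201 UMIs) in Smad3-WT and 765 CPM (282 UMIs) in Smad3-KO. Smad7 was highest in Smad3-KO T or NK-like cells, at 93.5 CPM (59 UMIs). Lymphocyte-like cells carried more of the type II receptor than neutrophil-like cells did, since Tgfbr2 was at 217 CPM in Smad3-KO T or NK-like cells and 152 CPM in B-like cells, against 29.4 CPM. The Smad3-KO neutrophil-like level of Tgfbr2 was 0.136 of that in T or NK-like and 0.193 of that in B-like cells. For Smad7 the Smad3-KO neutrophil-like level was 0.238 of the T or NK-like one (0.143 to 0.387), while the ratio to B-like cells, 0.643 (0.360 to 1.14), included 1.

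Smad3 in Smad3-KO neutrophil-like cells was 13.8-fold the B-like level of 13.6 CPM (7.53 to 28.0) and 6.22-fold the T or NK-like level of 30.1 CPM (3.88 to 10.5). The neighbour in that order was an unnamed cluster, number 10, led by Cox6a2 and Siglech, with 104 CPM, a ratio of 1.81 (1.31 to 2.53). It held 185 Smad3-KO and 4 Smad3-WT cells and was the next group for Tgif1 as well, at 350 CPM. In the Smad3-WT library Smad3 was at 16.5 CPM in neutrophil-like and 14.2 CPM in macrophage or monocyte-like cells, a ratio of 1.16 (0.703 to 1.89) whose interval included 1. Tgif1 and Skil exceeded the macrophage or monocyte-like level in Smad3-WT already, by 3.38-fold (2.88 to 3.97) and 2.89-fold (2.23 to 3.76). The LLC carcinoma-like cells of Smad3-WT, whose Smad3 gene was intact, had 16.6 CPM of Smad3 and 2.44 CPM of Tgfbr2.

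Smad7 was higher in Smad3-KO than in Smad3-WT in the T or NK-like cells, with 59 and 2 UMIs, a ratio of 7.45 (1.97 to 63.0). The 2 Smad3-WT UMIs lie under the floor of 3 UMIs, 18.8 CPM in that group, so the size of this ratio is not settled. Tgif1 went the other way in these cells, with 8 Smad3-WT and 15 Smad3-KO UMIs and a ratio of 0.474 (0.188 to 1.29) whose interval included 1. Unnamed cluster 6 alone had a Smad7 ratio of 2.77 (1.17 to 6.10) and a Tgfb1 ratio of 0.624 (0.479 to 0.802). Fibroblast-like cells had a Tgfb1 ratio of 0.565 (0.315 to 0.994), from 34 and 22 UMIs. The T or NK-like Tgfbr2 ratio was 2.31 (1.35 to 4.23), from 15 and 137 UMIs. In Smad3-WT macrophage or monocyte-like cells, cluster 11 (Cbr2, Folr2 and C1qa) exceeded cluster 3 (Chil3, Ppbp and Vcan) by 3.51-fold for Tgfbr2 (2.53 to 4.88).

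**Figure D4:**
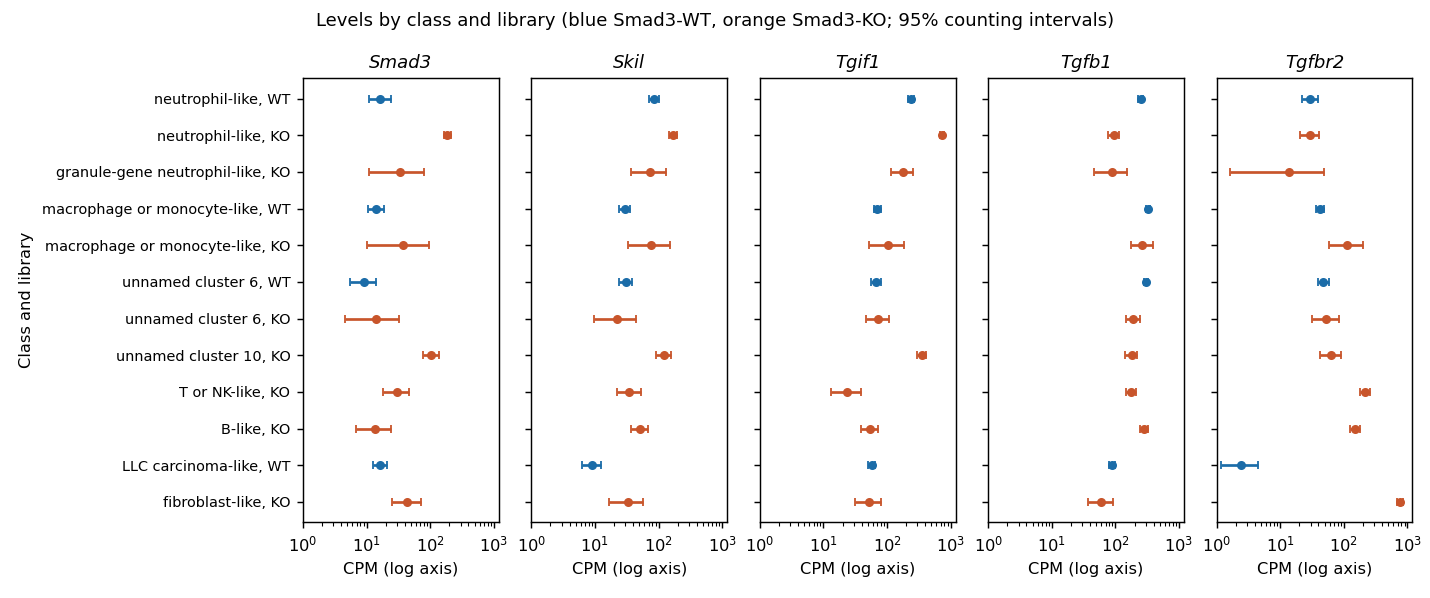
Levels of Smad3, Skil, Tgif1, Tgfb1 and Tgfbr2, in CPM with 95% counting intervals, in the 12 groups of at least 50 cells. Smad3-KO neutrophil-like cells are highest for Smad3 at 187 CPM, Tgif1 at 742 CPM and Skil at 169 CPM, and fibroblast-like cells for Tgfbr2 at 765 CPM.

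A list of 84 pathway genes, holding the 10, gave the wider pathway. In neutrophil-like cells 45 of them had at least 20 UMIs, with 9 higher and 10 lower, beside 7.16% higher and 25.9% lower of 5896 genes. Their median ratio was 0.993, beside 0.727 over all genes. Without the 10 members, 35 genes gave 6 higher and 9 lower. By role, 1 of 3 ligands was higher and 1 lower, 2 of 4 activation and storage genes higher and 1 lower, 0 of 6 receptors either, and 1 of 4 Smads higher. Of 14 regulators 2 were higher and 3 lower, and of 14 target genes 3 were higher and 5 lower. In cluster 1 alone, a choice made after seeing the data, 2 listed genes were higher and 10 lower. Beside them, 7.03% of all genes were higher there and 23.1% lower.

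Among the targets, the BMP and TGF-beta responsive inhibitors of DNA binding did not move together. Id2 went from 98.7 to 1017 CPM, a ratio of 10.3 (8.73 to 12.2), while Id1 went from 311 to 90.9 CPM, a ratio of 0.293. Id3 had 4 and 34 UMIs, a ratio of 12.4 (4.41 to 48.0), under the 50 UMIs set for naming a listed gene and named here after its values were seen. Klf10, an early TGF-beta response gene, was at 68.6 and 145 CPM, a ratio of 2.12. Fn1 (fibronectin) had 73 and 4 UMIs, a ratio of 0.0797 (0.0212 to 0.213), and Acta2 (smooth muscle actin) was at 273 and 24.1 CPM, a ratio of 0.0883. Both are best known from fibroblasts and smooth muscle, though other cells use them. Ccl9, a chemokine, went from 531 to 84.7 CPM, and Xbp1, a factor of the unfolded protein response, from 801 to 167 CPM. Of the genes for activating the ligand, Furin, the protease that cuts its precursor, had a ratio of 2.48 (2.06 to 3.01), and Itgav, an integrin subunit that frees it, 2.47. Nrros, which stores it on the surface of myeloid cells, was at 128 and 28.5 CPM, a ratio of 0.223. Gdf15, a distant relative of the ligand, had a ratio of 4.73 and Fkbp1a, which holds the type I receptor inactive, 0.0856. In Smad3-WT, Fkbp1a was at 698 CPM in LLC carcinoma-like and 508 CPM in macrophage or monocyte-like cells. Thbs1, an activator of latent TGF-beta, stayed within 2-fold at 6766 and 4641 CPM, as did Junb at 6058 and 3508 CPM.

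In macrophage or monocyte-like cells 60 of the list had at least 20 UMIs, with 11 higher, beside 14.7% of all genes. Another 15 had a ratio under 0.5, but 10 of these were at 0 UMIs in the Smad3-KO library and cannot be called at that floor, which leaves 5 lower, or 8.33%, beside the 8.14% of all genes. Id2 was again higher, at 219 and 636 CPM, a ratio of 2.91 (2.23 to 3.74), and Ccl9 again lower, at 2025 and 285 CPM. Thbs1 was lower here, at 3972 and 741 CPM, a ratio of 0.186 (0.147 to 0.233).

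A deposited table gives each gene's average in 13 clusters defined by the authors. It pools both libraries without the filters used here, and whole UMIs could be recovered from it. Smad3 was highest in their cluster 3, at 232 CPM (199 to 268; 181 UMIs), where Il1a, Tnfaip3 and Csf3 led and 10 of 12 neutrophil markers were raised. The next was cluster 4, led by haemoglobin and immunoglobulin genes, at 82.3 CPM. Skil and Tgif1 had the same order, with 191 and 957 CPM in cluster 3 and 110 and 472 CPM in cluster 4. Tgfb1 was highest in the macrophage-marked cluster 5, at 394 CPM, then cluster 7 at 312 CPM. Tgfbr2 and Smad7 were highest in cluster 9, led by T cell genes, at 187 and 77.8 CPM. Tgfbr1, Ski and Smad2 were highest in cluster 10, led by granule genes such as Camp and Ngp. Their levels were 64.2 CPM (41.9 to 94.1; 26 UMIs), 69.1 CPM (45.9 to 99.9; 28 UMIs) and 44.4 CPM (26.3 to 70.2; 18 UMIs). Each interval overlapped that of the next cluster. In the rebuilt granule-gene neutrophil-like class, 62 Smad3-KO cells held 4, 2 and 3 UMIs of these genes, at 27.1, 13.5 and 20.3 CPM. The authors' averages hold the same cells as the matrix and are no separate evidence.

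**Figure D5:**
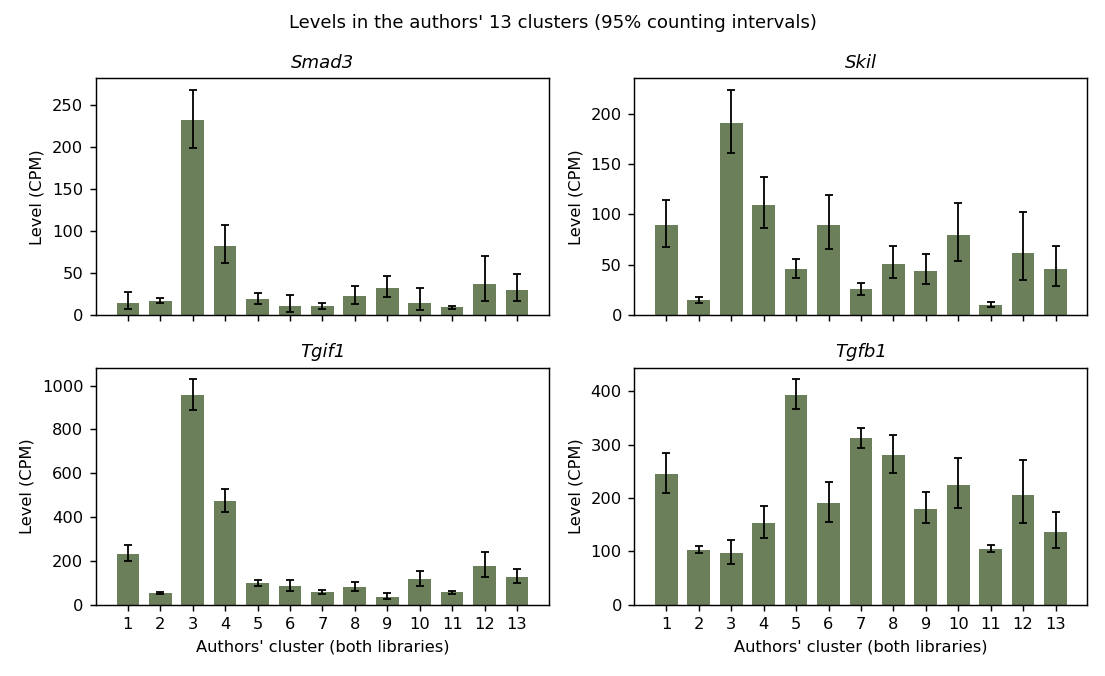
Levels of Smad3, Skil, Tgif1 and Tgfb1, in CPM with 95% counting intervals, in the authors' 13 clusters over both libraries. Cluster 3 is highest for Smad3 at 232 CPM, Skil at 191 CPM and Tgif1 at 957 CPM, and cluster 5 for Tgfb1 at 394 CPM.

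Genes with the pattern most like a member's were ranked by correlation of log2 CPM over the 12 groups of at least 50 cells, among 7352 genes, as a description. For Smad3 they were Ppp4r2 (0.928), Prkd3 (0.887) and Csf3 (0.873). For Skil they were Pfkfb3 (0.940), Atg2a (0.929) and Birc3 (0.929), and for Tgfb1 Gng2 (0.939), Ppp6c (0.908) and Nrros (0.886). The 12 groups come from 2 libraries and share their depth.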

How the data were processed

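RNA was counted in 1 library of Smad3-WT and 1 of Smad3-KO sorted tumor cells. The authors deposited raw UMI counts made with Cell Ranger 3.0.2 (the matrix header) on mm10 (per the submitters' processing notes), and averages per gene, a signal scaled to the depth of a cell, for the libraries and for 13 clusters. Deposited log2 fold changes and p-values are the authors' comparisons and were not used. Libraries were assigned to barcodes by matching summed counts to the deposited averages (differences up to 3.58e-08 over 19114 genes).

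Cells with at least 200 genes, 500 to 20000 UMIs and at most 10% mitochondrial UMIs were kept. They were clustered without the members and listed pathway genes, by the Louvain method in scanpy 1.11.5 and igraph 0.11.9 (2000 variable genes, 100 components, resolution 1). Clusters were named from marker lists when 3 or more markers were detected in at least 10% of cells at 2-fold. A cluster stayed unnamed where another list held more of its 10 leading genes than its best-matching list did. For cluster 6, with 9 macrophage or monocyte markers, this was 1 against 0. A shallow cluster also needed a marker of its own among the leading genes. UMIs were summed per library and class. Poisson intervals of levels, conditional binomial intervals of ratios and Clopper-Pearson intervals of shares, all at 95%, were exact. The intervals and 2-fold calls were tried on counts simulated under the Poisson model that they assume. That trial held no free RNA, cluster differences or library effect, so it cannot speak for these. Scrublet marked 3 of 5953 cells (0.0504%), which is too few to trust, and doublets were not removed. The members and lists were chosen with earlier results of these data known. Named genes are the members, the listed genes past 2-fold with at least 50 UMIs (up to 8 per direction) or most abundant in their role, of which the text gives a part, and for likeness the first 3. Alternatives were other filters, scalings, clusterings and count minimums.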

Additional observations from a re-analysis of the deposited data

How the results depend on the processing

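Alternative settings were compared for the Smad3 ratios, the counts past 2-fold and the classes of highest level. In 88 of 97 comparisons the ratio stayed within its main interval or the count within 1.5 times, which does not say that each gene kept its call, and in 9 it did not. A wide interval is easy to stay within. That of Smad3 in macrophage or monocyte-like cells, 0.701 to 7.26, held the 1.57 found with cluster 6 included, which is under 2-fold. In neutrophil-like cells the Smad3 ratio ranged from 3.32 to 15.6, and 3.32 was its value in cluster 1 only, against 11.3. With cluster 1 only, 2 members (0 higher) passed 2-fold in place of 4. Of the listed genes 12 passed there (2 higher and 10 lower), in place of 19 (9 higher and 10 lower). Smad3 at 3.32 and Smad7 at 3.65 had fewer than 20 UMIs there and could not be called. Tgif1 at 0.447, Skil at 0.545, Tgfbr1 at 0.635 and Smad7 turned direction. Skil sat at the limit and fell under 2-fold with no filter on cells, the mean over cells of CPM, 30 components, another seed, granule-gene cells included, or totals without mitochondrial and ribosomal genes. Ski passed 2-fold lower in 6 settings, at 0.404 to 0.496, and in 5 of them the split was 2 higher and 2 lower. Over all cells the Smad3 ratio was 2.62 without cluster 2, against 5.30, and 3 members passed with the mean over cells of CPM, against 6. In macrophage or monocyte-like cells 7 members passed with no filter on cells and 1 with unnamed cluster 6 included, against 4, and 15 listed genes with a minimum of 50 UMIs, against 26. With median-of-ratios scaling 7 members had their highest level in neutrophil-like cells, against 3. Cluster 1 only, cluster 2 left out and cluster 6 included were chosen after seeing the data. Removal of doublets was not run, since too few were marked. No paired analysis was possible because each genotype has 1 library and no replicate numbers. Depth limits the groups of few cells, such as the 50 Smad3-KO macrophage or monocyte-like, 48 Smad3-WT T or NK-like and 45 Smad3-WT fibroblast-like cells.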
